A study of Mus musculus with 3 samples.

Results

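Splenic erythroid cells, the nucleated precursors of red blood cells, were picked out of a mouse spleen preparation enriched for dendritic cells (DCs). They were chosen by their own RNA counts. A barcode with a clear sample hashtag had to hold 5 or more unique molecular identifiers (UMIs, each counting 1 captured RNA molecule) of Slc4a1, Alas2 and Rhd together. It also had to hold fewer than 20 UMIs of H2-Ab1, at most 1 of Siglech, none of Xcr1 or Clec9a and at most 1 of Cd79a, genes of DCs and B cells. Of 29012 barcodes with 500 or more genes, at most 10% mitochondrial UMIs and a clear hashtag, 1350 (4.65%) met this rule. Levels of the genes named in the rule are therefore given as a description only.

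The series compared panobinostat, a histone deacetylase inhibitor, with its vehicle in splenic DCs of mice with and without leukemia. C57BL/6 mice were dosed over 2 days; their spleen cells were separated by density, sorted for absence of GFP, depleted of non-DCs with magnetic beads and pooled into 1 droplet capture. There were 2 leukemia panobinostat samples, 1 wild-type (WT) panobinostat sample, 2 leukemia vehicle samples and 1 WT vehicle sample, told apart by 6 antibody hashtags whose names give disease, a number and a drug code. The codes LBH and D5W were read as panobinostat and as its vehicle. The hashtag names of the leukemia samples give the disease as AML. The labels used here do not describe it further. They also do not say whether the hashed samples came from separate animals, so that p-values measure the spread between these 6 samples. Each condition of the WT mice is a single sample. Because DCs were enriched, the erythroid share is that of cells that passed the preparation, not that of the spleen.

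Red cells are made from progenitors that respond to the hormone erythropoietin, divide several times, fill with hemoglobin, and finally expel the nucleus. In the mouse the spleen is a regular site of this process and widens it under stress. The transcription factors GATA1 and KLF1 drive the genes of globin, of heme synthesis and of the red cell membrane. Progenitor genes such as Kit and Myb are switched off as the cells mature.

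The genes highest in these cells relative to other cells were mostly erythroid, in part because the rule selected on them. The 20 genes with the highest ratio of erythroid to other kept cells, taking the lowest of the 6 samples and a level of at least 100 CPM (the UMIs of a gene scaled to a total of 1000000 UMIs), were led by Slc4a1 (lowest ratio 5.55), the red cell anion exchanger and a gene of the rule. Then came Hba-a2 (4.60) and Hba-a1 (4.46), which encode alpha globin, Tac2 (4.21), which encodes the neuropeptide neurokinin B, and Rhd (4.16), the mouse Rh blood group protein and also a gene of the rule. Hbb-bs (3.69) and Hbb-bt (3.39), the adult beta globins, were followed by Mgst3, Cldn13, Slc25a37 (the mitochondrial iron carrier), Alad, Fam213a, Slc38a5, Ndrg2, Cdc25b, Actr3b, Syngr1 and Smim1 among the rest. Of 16 genes of heme synthesis and hemoglobin stability, 14 were higher in erythroid cells than in the other kept cells, with a summed level of 5111 CPM against 1319 CPM. Of 21 genes of the red cell membrane and skeleton, 20 were higher, at 2807 against 1043 CPM. All 25 S phase genes and all 25 G2 and M phase genes of the lists were higher too.

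A total of 3166 kept barcodes held 5 or more UMIs of the 3 erythroid genes, and 1816 of them were set aside by the limits on DC and B cell genes. H2-Ab1 removed 1330, Xcr1 and Clec9a 1167, Siglech 436 and Cd79a 55, with overlap. The 1350 cells held 22936906 UMIs, with a median of 16324 UMIs and 3432 genes per cell, against 7366 UMIs and 2026 genes in the other kept barcodes. At the threshold, the 216 cells with exactly 5 UMIs had a median globin share of 1.37% and 2161 CPM of Car2, a red cell carbonic anhydrase. The 234 barcodes with 4 UMIs that met every other condition had 1.42% and 2178 CPM, so cells on both sides of the threshold had like levels.

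Hashtags were weak on these cells, and that bears on every comparison between samples. Among barcodes that met the RNA part of the rule, 47.5% had a clear hashtag (the top tag at least 2 times the next), against 81.2% of all other filtered barcodes, and 1495 were left out for want of one. The median count of the cell's own hashtag was 217.5, 320 and 89.5 in leukemia panobinostat 1, leukemia panobinostat 2 and WT panobinostat, against 175.5, 72 and 292 in leukemia vehicle 1, leukemia vehicle 2 and WT vehicle. In the other kept cells of the same samples the medians were 413, 777 and 490.5 with panobinostat and 526, 329 and 881 with vehicle. Erythroid cells thus carried fewer hashtag counts than other cells in all 6 samples, with the lowest in leukemia vehicle 2 and WT panobinostat. The median globin share was 10.03% in the barcodes left out, against 6.28% in the 1350 members. Where each hashtag was first reduced by its median in barcodes of other tags, 2245 cells met the rule.

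The CD11c antibody, against an integrin of DCs, took no part in the choice of cells, although the rule limited DC genes. Median CD11c counts in erythroid cells were 553, 470 and 212.5 in the panobinostat samples (leukemia 1, leukemia 2 and WT), against 219.5, 179 and 587 in the vehicle samples in the same sequence. Other kept cells had medians of 1518.5, 1806 and 1849 in the panobinostat samples and 949, 846.5 and 1889 in the vehicle samples. The erythroid median was lower in 6 of 6 samples, by a mean of 1106 ± 381 counts (SD of the 6 differences; exact two-sided sign-flip test p = 0.03125, the smallest that 6 pairs allow; Benjamini-Hochberg adjusted p = 0.25 over 8 tests). For the Siglec-H antibody, a marker of plasmacytoid DCs, the mean difference, erythroid minus other cells, was -13.6 ± 19.9 counts, lower in 5 of 6 samples (exact sign-flip p = 0.09375, adjusted p = 0.375). The rule capped Siglech, the gene of this protein, and left cells rich in DC genes among the other kept cells. The direction of both antibody differences was thus in part set by the choice of cells, and neither test can separate that part. Within samples, the cell's own hashtag count moved with its CD11c count: Spearman's rho over erythroid cells was 0.783, 0.830 and 0.806 in the panobinostat samples and 0.728, 0.615 and 0.753 in the vehicle samples. Both are antibody counts of the same cells and share their depth. The share of erythroid cells with 250 or more CD11c counts was 63.4%, 63.9% and 44% with panobinostat, and 46.5%, 11.4% and 85.8% with vehicle. In the 1495 barcodes without a clear hashtag it was 13.9%. A clear hashtag therefore went with a high CD11c count, and leukemia vehicle 2 stood lowest in both. The part of this in the results below was not tested, and values for the 699 cells under 250 CD11c counts are given beside several of them.

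The share of erythroid cells did not separate the treatments. It was 2.06% (82 cells; exact 95% interval 1.64 to 2.55%) in leukemia panobinostat 1, 2.91% (83; 2.33 to 3.60%) in leukemia panobinostat 2 and 8.13% (350; 7.33 to 8.99%) in WT panobinostat. It was 2.55% (114; 2.11 to 3.06%) in leukemia vehicle 1, 14.6% (376; 13.2 to 16.0%) in leukemia vehicle 2 and 3.19% (345; 2.86 to 3.54%) in WT vehicle. The intervals cover counting error only. Leukemia vehicle 2 and WT panobinostat were high, the other 4 samples lay close together, and the treatments overlapped. Panobinostat samples averaged 4.37 ± 3.29% and vehicle samples 6.77 ± 6.77% (SD, n = 3 each; exact two-sided permutation p = 0.6, where 0.1 is the smallest possible; adjusted p = 0.8 over the same 8 tests). Without leukemia vehicle 2 the difference, panobinostat minus vehicle, was +1.498 percentage points in place of -2.40. Leukemia samples averaged 5.52 ± 6.04% (n = 4) and WT samples 5.66 ± 3.50% (n = 2; exact permutation p = 0.933, smallest possible 0.0667, adjusted p = 0.933). Without leukemia vehicle 2 the difference, leukemia minus WT, was -3.15 percentage points, and with vehicle samples alone it was +5.37.

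**Figure D1:**
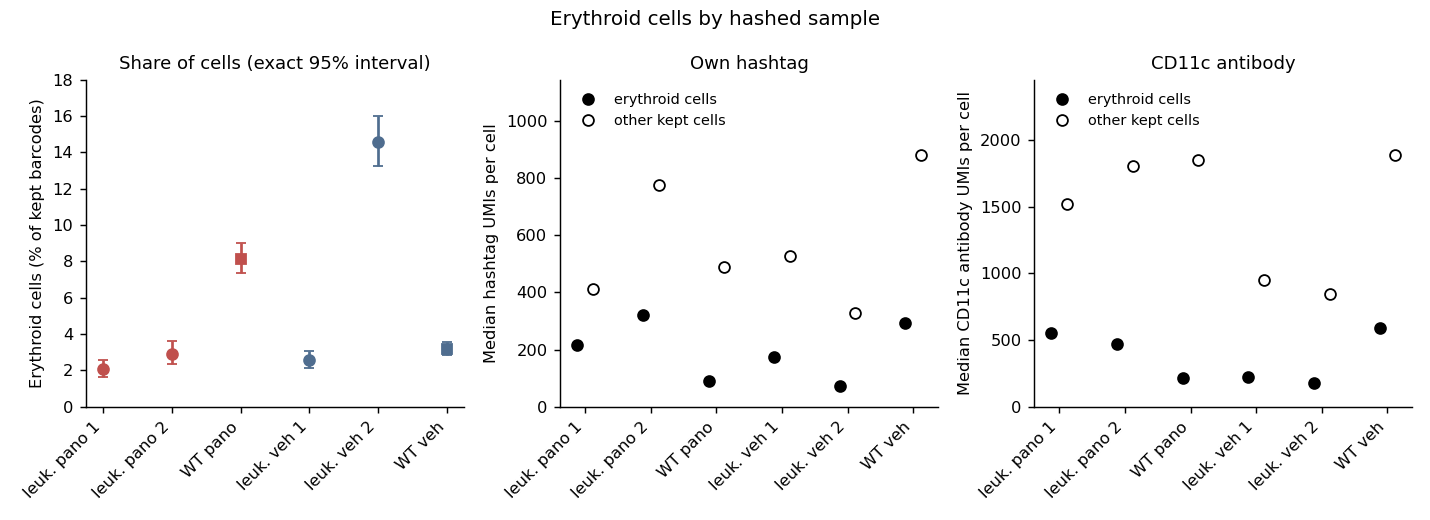
The left panel gives the erythroid share of kept barcodes (%) in the 6 hashed samples with exact 95% intervals as bars (panobinostat red, vehicle blue; circles leukemia, squares WT), and the other panels give median hashtag and CD11c UMIs per cell, filled for erythroid and open for other kept cells. The share reached 14.6% in leukemia vehicle 2 and 8.13% in WT panobinostat, whose erythroid cells had the fewest hashtag counts, with medians of 72 and 89.5.

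Globin made up about the same part of the erythroid UMIs in 5 of the 6 samples. All globin genes together took 11.3%, 11.1% and 12.6% of UMIs in the panobinostat samples (leukemia 1, leukemia 2 and WT), against 11.2%, 4.37% and 11.5% in the vehicle samples. Leukemia vehicle 2 alone was low, and it lay below every other sample of either treatment. In other kept cells, where free RNA also adds reads, the share was 1.08 to 1.42%. Panobinostat samples averaged 11.7 ± 0.817% and vehicle samples 9.01 ± 4.02% (SD, n = 3 each; exact permutation p = 0.5, adjusted p = 0.8). Without leukemia vehicle 2 the difference, panobinostat minus vehicle, was 0.335 percentage points in place of 2.65, and in the cells under 250 CD11c counts it was 5.84 (exact permutation p = 0.2). Leukemia samples averaged 9.48 ± 3.41% (n = 4) and WT samples 12.04 ± 0.778% (n = 2; exact permutation p = 0.4, adjusted p = 0.8), a difference of -2.56 percentage points that was -0.856 without leukemia vehicle 2 and +1.32 in the cells under 250 CD11c counts. In leukemia vehicle 2, 52.1% of erythroid cells had under 2% globin, against 11.1 to 23.5% in the other samples.

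Adult globins carried nearly all of this signal. Hbb-bs, at chr7:103826534-103828096 of GRCm38, stood at 73036, 72415 and 85867 CPM with panobinostat and at 71866, 26491 and 72494 CPM with vehicle. Hba-a1, at chr11:32283511-32284465, stood at 24029, 23251 and 25547 CPM with panobinostat and 24355, 11745 and 25651 CPM with vehicle. The treatments overlapped for both, and leukemia vehicle 2 had the lowest level of each. Hba-a2 and Hbb-bt are near-identical copies of Hba-a1 and of Hbb-bs, so reads may be split between them; Hba-a2 ranged from 3688 to 9652 CPM and Hbb-bt from 1795 to 7272 CPM, with leukemia vehicle 2 lowest in both. Of the embryonic globins, Hbb-bh1 had 35 UMIs in 7 cells, Hbb-y had 13 UMIs and Hba-x had none. The rule genes were lowest in leukemia vehicle 2 too. Slc4a1 (chr11:102348824-102366203) stood at 226, 230 and 210 CPM with panobinostat and 247, 109 and 232 CPM with vehicle. Alas2 (chrX:150547375-150570638), the erythroid form of the first enzyme of heme synthesis, stood at 132, 121 and 107 CPM with panobinostat, and at 118, 48.9 and 127 CPM with vehicle. Rhd (chr4:134864536-134896172) differed less, at 420, 398 and 453 CPM with panobinostat and 420, 346 and 433 CPM with vehicle.

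**Figure D2:**
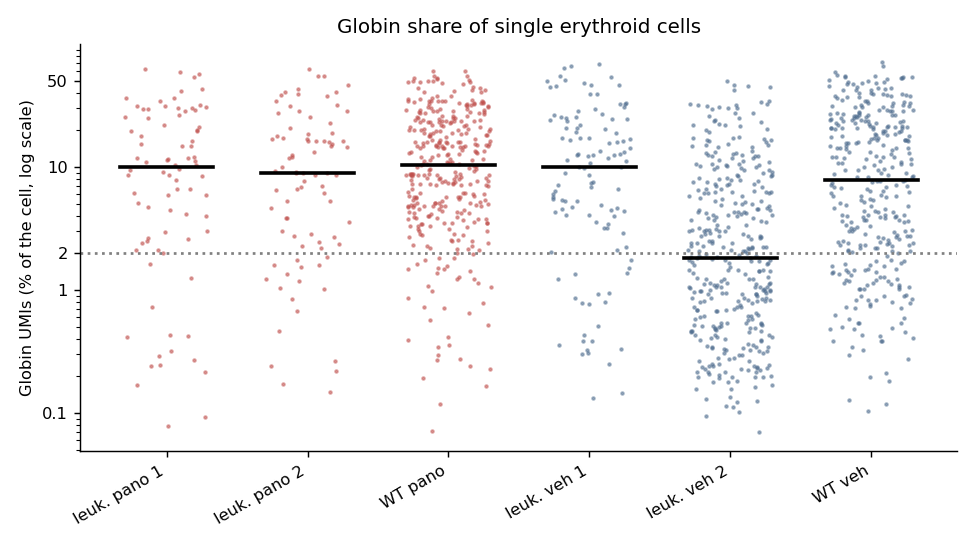
Globin UMIs as a percentage of all UMIs of the cell, on a log axis, for every erythroid cell of the 6 hashed samples (1 point per cell, panobinostat red, vehicle blue), with the median of the cells as a bar and 2% as a dotted line. The median was 1.83% in leukemia vehicle 2 and 7.86 to 10.3% in the other samples, and 52.1% of the cells of leukemia vehicle 2 lay under 2%.

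The promoters of 3 genes whose levels set these cells apart are shown for their letters, from 250 bases before to 50 bases after the start of transcription (RefSeq, GRCm38.p6, 5′ to 3′ on the gene's strand): Alas2 of the rule, Hbb-bs, the globin with the most UMIs, and Tac2, which is described below. Capitals mark AGATAA (or TTATCT, the same motif on the other strand), the core bound by GATA factors, and CCACACCC, a box of the kind bound by KLF1.
Alas2 (chrX:150547167-150547466, plus strand): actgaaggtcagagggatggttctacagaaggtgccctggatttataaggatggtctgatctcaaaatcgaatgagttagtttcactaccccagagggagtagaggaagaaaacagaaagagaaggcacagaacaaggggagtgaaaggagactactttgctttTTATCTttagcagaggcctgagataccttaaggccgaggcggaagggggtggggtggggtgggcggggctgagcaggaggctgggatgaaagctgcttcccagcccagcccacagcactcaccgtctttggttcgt
Hbb-bs (chr7:103827879-103828178, minus strand): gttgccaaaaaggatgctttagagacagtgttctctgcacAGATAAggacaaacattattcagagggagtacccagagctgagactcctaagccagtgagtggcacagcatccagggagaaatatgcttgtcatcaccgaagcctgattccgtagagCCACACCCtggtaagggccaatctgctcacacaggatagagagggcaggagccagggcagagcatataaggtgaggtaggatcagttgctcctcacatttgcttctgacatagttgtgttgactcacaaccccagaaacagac
Tac2 (chr10:127724228-127724527, plus strand): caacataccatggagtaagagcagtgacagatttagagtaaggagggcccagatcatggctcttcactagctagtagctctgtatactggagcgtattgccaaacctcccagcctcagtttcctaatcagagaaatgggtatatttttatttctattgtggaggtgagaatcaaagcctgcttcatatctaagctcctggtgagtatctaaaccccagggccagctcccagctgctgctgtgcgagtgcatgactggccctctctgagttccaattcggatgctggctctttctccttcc
Alas2 held TTATCT with its first base 86 bases before the start. Hbb-bs held AGATAA 210 bases and CCACACCC 93 bases before the start. Neither motif was in the Tac2 window. Searched on both strands, AGATAA was in 11.2% of all 32851 promoters in the table and in 17 of 116 promoters (14.7%) of the erythroid lists, of whose 103 genes 77 were matched. CCACACCC was in 3.56% of all promoters and in 4 of the 116 (3.45%). These matches describe letters in a window and are not evidence of binding.

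Cells differed far more in the globin share of their UMIs than samples did. Ordered by globin share, the 1350 cells were cut into 3 equal groups of 450, called low-globin (0.0699 to 2.73% of UMIs), middle-globin (2.74 to 13.2%) and high-globin (13.2 to 70.6%) cells. These are ranges and not cell types: 45 and 59 cells lay within 10% of the lower and of the upper limit. The globin share of the other kept cells, 1.08 to 1.42% by sample, lay within the low-globin range. Median depth of the 3 groups was 19336, 16797 and 11606 UMIs from low to high. All levels in the next paragraphs are CPM of non-globin UMIs, given from low- to high-globin cells, and all are description with no test. Over 10944 non-globin genes with enough UMIs, 51.5% were higher in high- than in low-globin cells, with a median log2 ratio of 0.02.

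Heme and iron genes were higher in cells with more globin. Of 16 heme genes, 15 were higher in high- than in low-globin cells (14 of them in all 6 samples; median log2 ratio 1.26). Alas2, a gene of the rule that is not counted among the 16, stood at 8.01, 60.2 and 398 CPM. Alad, the second enzyme of the pathway, stood at 158, 282 and 470 CPM. Fech, which inserts the iron, stood at 105, 153 and 304 CPM. For iron itself, Slc25a37, the carrier into mitochondria, stood at 82.2, 151 and 457 CPM. Tfrc, the transferrin receptor, stood at 54.6, 95.7 and 178 CPM. Of the 13 iron genes, 3 went the other way in all 6 samples: Slc11a2, the transporter that moves iron out of endosomes (log2 ratio -0.44), Steap3, its ferrireductase (-0.78), and Tfr2, a second transferrin receptor (-0.37). The list as a whole had 9 higher and 4 lower, with a median of 0.47.

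Membrane genes were ordered in the same way, 20 of 21 higher in high-globin cells with a median log2 ratio of 1.55. Slc4a1, a gene of the rule that is not counted among the 21, stood at 35.9, 181 and 621 CPM. Dmtn, an actin-binding protein of the membrane skeleton, stood at 2.31, 12.8 and 67.0 CPM (log2 ratio 4.86). Slc2a1, the glucose transporter, stood at 10.9 and 15.4 CPM in low- and middle-globin cells and at 115 CPM in high-globin cells. Cd24a, a surface glycoprotein of immature blood cells, stood at 335, 620 and 1380 CPM.

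Transcription factors were mostly higher with more globin. Gata1 stood at 81.0, 98.4 and 123 CPM and Klf1 at 131, 149.6 and 185 CPM. Sox6, which silences embryonic globin, stood at 23.4, 62.7 and 137 CPM. Nfe2, a globin activator, had a log2 ratio of 1.61 and Trim10, needed for terminal differentiation, 2.10. Bcl11a, a silencer of fetal-type globin in humans, was lower in high-globin cells of all 6 samples (log2 ratio -0.44). The factor list had 12 of 15 genes higher, with a median of 0.66.

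Progenitor genes ran both ways. Myb, a factor of proliferating progenitors, stood at 133, 79.9 and 45.9 CPM and was lower in high-globin cells in 6 of 6 samples. Kit, the stem cell factor receptor, stood at 36.8, 20.8 and 16.1 CPM and was lower in 5 of 6. Car1, a carbonic anhydrase counted in the late maturation list below, stood at 1608, 1291 and 1001 CPM. Car2, its partner in the red cell and in the same list, stood at 2182, 2879 and 3528 CPM. Epor, the erythropoietin receptor, was higher in high-globin cells (log2 ratio 0.60), and so were Pim1 (1.43) and the survival factor Bcl2l1 (1.84), both known to be induced by its signal, and Csf2rb, a beta chain of cytokine receptors (1.82). The progenitor list had 11 of 17 genes higher, with a median of 0.24.

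Genes of late maturation were higher in high-globin cells for 18 of 19 members (17 in all 6 samples, median 1.08). Car1 was the exception, lower in all 6 samples (log2 ratio -0.68). The higher genes included Hemgn (log2 ratio 2.47), Bpgm, which makes the oxygen-affinity regulator of red cells (2.26), Ypel4 (3.83) and Bnip3l, needed for removal of mitochondria (0.71). Of 12 genes that restrain the cell cycle, 10 were higher, with a median of 0.87. Btg2 had a log2 ratio of 2.02, Cdkn1b, which encodes p27, 1.49, and Rb1 1.16. Megakaryocyte and platelet markers moved with the globin range too: all 7 with enough UMIs, of 10, were higher in high-globin cells (median 1.96; 1 of them in all 6 samples). Pf4, a platelet chemokine, stood at 15.2, 24.4 and 203 CPM. It was found in 19.3%, 22.4% and 29.1% of cells, with a median of 0 UMIs in each group. Others were sparse, such as Vwf with 4, 10 and 8 UMIs. Gp1ba and Treml1 were higher in 3 samples and lower in 3. The part of these markers in the other differences along the range was not tested.

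**Figure D3:**
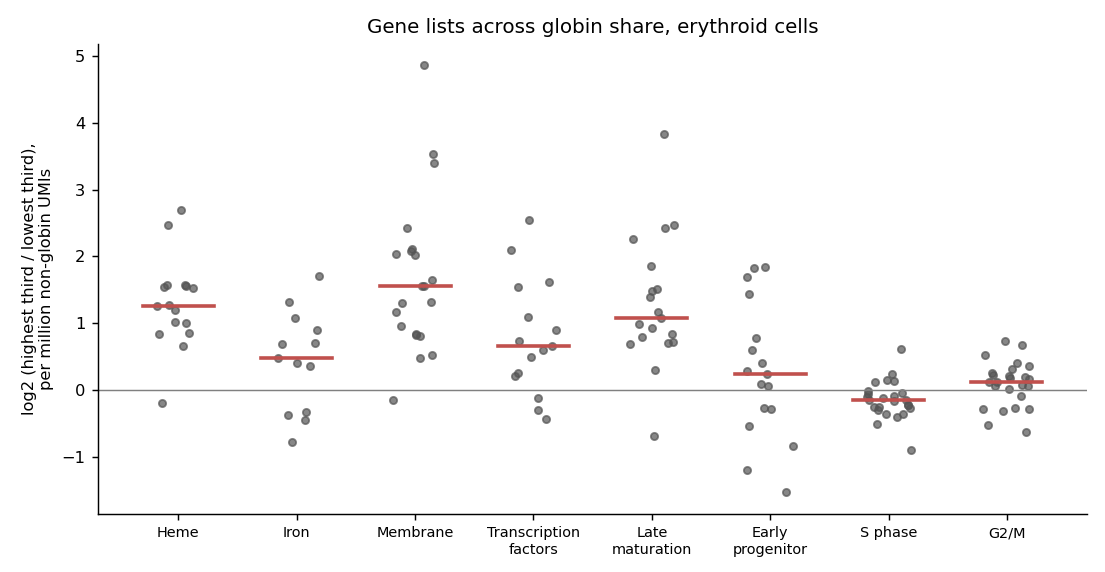
Log2 ratio of high-globin over low-globin cells, per non-globin UMI, for each gene (1 point) of 8 lists, with the list's median as a red bar. Medians are 1.26 for heme, 1.55 for membrane and 1.08 for late maturation genes, and -0.16 for S phase and 0.13 for G2/M genes.

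The cells of leukemia vehicle 2 sat at the low-globin end of this range. Low-globin cells were 58.5% of its erythroid cells (220 of 376), against 14.9 to 31.0% in the other samples. High-globin cells were 11.97% of them, against 39.0 to 43.4% elsewhere. In cell numbers, low-globin cells counted 22, 23 and 52 with panobinostat and 26, 220 and 107 with vehicle; high-globin cells counted 32, 34 and 152 with panobinostat and 46, 45 and 141 with vehicle.

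Most erythroid cells held RNA of dividing cells. S phase and G2/M phase lists together took 0.613%, 0.676% and 0.712% of UMIs in the panobinostat samples (leukemia 1, leukemia 2 and WT), against 0.693%, 0.774% and 0.681% in the vehicle samples. Leukemia vehicle 2 was again at one end, here the highest, and the treatments overlapped. The share in other kept cells was 0.220 to 0.407%. Panobinostat samples averaged 0.667 ± 0.0501% and vehicle samples 0.716 ± 0.0506% (SD, n = 3 each; exact permutation p = 0.4, adjusted p = 0.8). Leukemia samples averaged 0.689 ± 0.0659% (n = 4) and WT samples 0.696 ± 0.0225% (n = 2; exact permutation p = 0.8, adjusted p = 0.914). After each cell was thinned to 2000 UMIs (1 shallower cell left out), 65.6% had 3 or more S phase UMIs, 72.2% had 3 or more G2/M UMIs and 4.52% had neither. In cells with 5 or more UMIs of Xcr1 and Clec9a, genes of conventional type 1 DCs (cDC1), and none of the 3 erythroid genes, these shares were 18.4%, 14.2% and 30.4% at the same depth. Free RNA can add to all of these counts.

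By sample, the thinned share of cells with 3 or more G2/M UMIs was 59.3%, 68.7% and 70.3% with panobinostat and 71.1%, 79.8% and 70.1% with vehicle. The corresponding S phase shares were 50.6%, 63.9% and 66.6% with panobinostat and 55.3%, 72.9% and 64.1% with vehicle. Leukemia panobinostat 1 was lowest and leukemia vehicle 2 highest in both, and the treatments overlapped in both. Along the globin range, the share with 3 or more S phase UMIs was 77.3%, 74.2% and 45.2%, and for G2/M 81.6%, 78.7% and 56.3%; globin itself takes up part of the 2000 UMIs. Per non-globin UMI, 20 of 25 S phase genes were lower in high-globin cells (median log2 ratio -0.16) and 18 of 25 G2/M genes were higher (0.13). Hells, a chromatin remodeller of S phase, had a log2 ratio of -0.90 and Chaf1b, of the chromatin assembly factor, -0.52, both lower in 6 of 6 samples. Mki67, the Ki-67 protein of dividing cells, stood at 443, 571 and 707 CPM and was higher in 6 of 6. Within the G2/M list, Nusap1, a spindle protein, was higher (0.74) and Bub1, a spindle checkpoint kinase, was lower (-0.62).

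Tac2 (chr10:127724478-127731768) stood among the leading erythroid genes and was lower in every panobinostat sample than in every vehicle sample. It encodes the precursor of neurokinin B, a peptide best known from the hypothalamus. It stood at 368, 379 and 353 CPM in the panobinostat samples (leukemia 1, leukemia 2 and WT), against 481, 448 and 468 CPM in the vehicle samples. All 3 panobinostat samples were lower than all 3 vehicle samples, and no values overlapped. Panobinostat samples averaged 367 ± 13.4 CPM and vehicle samples 466 ± 16.3 CPM (SD, n = 3 each), a ratio of 0.787 (exact two-sided permutation p = 0.1, the smallest possible). In edgeR's quasi-likelihood test over all genes the log2 fold change was -0.30 (SE 0.088; unadjusted p = 0.0093), and the Benjamini-Hochberg adjusted p was 1.0, so Tac2 was not called. It was -0.37 without leukemia vehicle 2, -0.39 in the cells under 250 CD11c counts, -0.11 where the top hashtag had to be 4 times the second and -0.57 with hashtags less their background. Among 9824 genes tested, 6.4% were lower with panobinostat without overlap and 2.69% were higher. Leukemia samples averaged 419 ± 54.3 CPM (n = 4) and WT samples 410 ± 81.7 CPM (n = 2; exact permutation p = 0.8).

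Across cells Tac2 was widespread. A Tac2 UMI was found in 77.1% of erythroid cells, and in 44.3% after thinning to 2000 UMIs. In cDC1-gene cells, at a median of 15075 UMIs against 16324 UMIs in erythroid cells, it was found in 6.07%, or 0.83% after thinning. Cells with 5 or more Siglech UMIs (median 5754), also with none of the 3 erythroid genes, had 4.61% and 1.298%. Both sets thus left out cells with RNA of the rule genes. In all other kept cells Tac2 was found in 13.8% unthinned, at 72.5 CPM. Barcodes with 4 UMIs of the rule genes, just outside the threshold, had 239 CPM, against 270 CPM in cells with exactly 5. The share of erythroid cells with a UMI after thinning was 34.6%, 42.2% and 37.4% with panobinostat and 50.9%, 47.6% and 48.1% with vehicle, again without overlap. Unthinned, it was 72.0%, 77.1% and 70% with panobinostat and 75.4%, 84.3% and 78.3% with vehicle, where the ranges did overlap.

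Within the globin range, Tac2 stood at 362, 534 and 578 CPM of non-globin UMIs from low- to high-globin cells. In low-globin cells the panobinostat samples had 404, 508 and 302 CPM and the vehicle samples 401, 325 and 421 CPM, with overlap. In middle-globin cells the panobinostat samples had 319, 454 and 415 CPM and the vehicle samples 606, 711 and 543 CPM. In high-globin cells they had 597, 278 and 453 CPM with panobinostat and 632, 877 and 678 CPM with vehicle. All panobinostat samples were lower in the middle and high groups and not in the low one; the difference between the groups was not tested. The gene's receptor Tacr3 and the related Tacr1, Tacr2, Tac1 and Tac4 had no UMI in the 1350 cells.

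**Figure D4:**
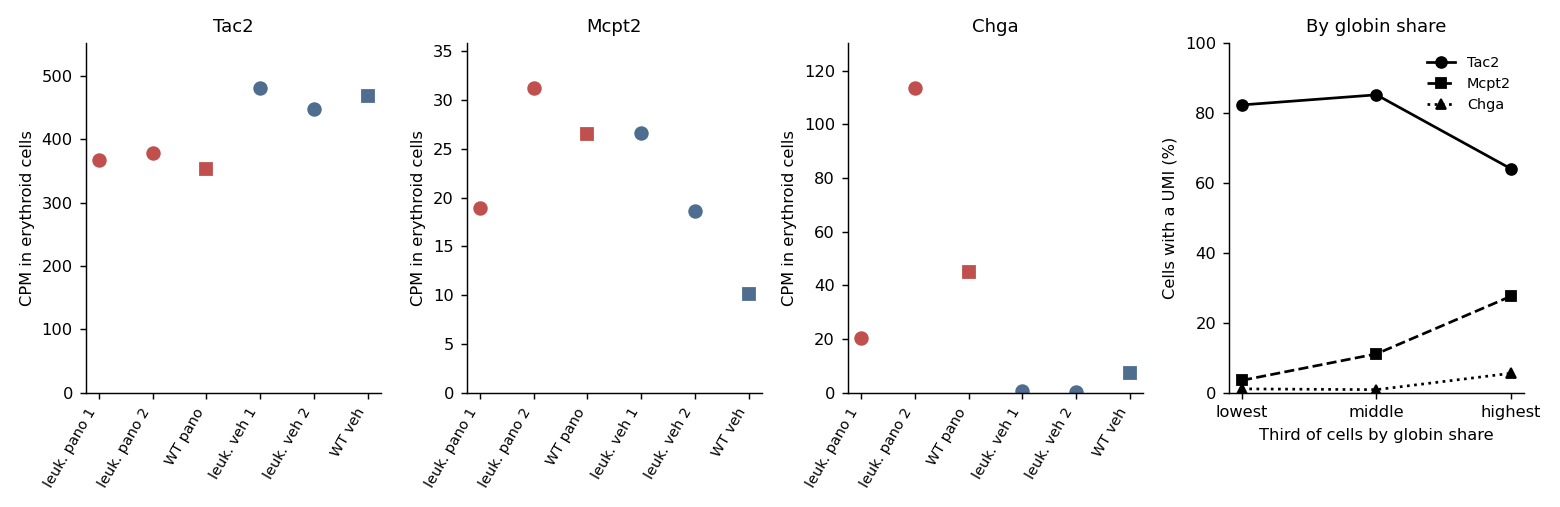
The first 3 panels give Tac2, Mcpt2 and Chga in CPM of erythroid cells in each hashed sample (panobinostat red, vehicle blue; circles leukemia, squares WT), and the last gives the percentage of cells with a UMI from low- to high-globin cells. Tac2 lies at 353 to 379 CPM in panobinostat and 448 to 481 CPM in vehicle samples, and the share of cells with Mcpt2 is 3.56% in low-globin and 27.6% in high-globin cells.

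Mcpt2 (chr14:56042041-56044642), a chymase known from mucosal mast cells, was found in 190 erythroid cells (14.1%) with 457 UMIs. It stood at 18.9, 31.2 and 26.5 CPM with panobinostat and 26.7, 18.6 and 10.2 CPM with vehicle. The treatments overlapped, with means of 25.5 ± 6.20 and 18.5 ± 8.25 CPM (SD, n = 3 each; exact permutation p = 0.3). After thinning, 3.11% of erythroid cells had a UMI, against 0.0829% of cDC1-gene cells and 0.159% of Siglech cells. Unthinned, 1.85% of all other kept cells had a UMI. The share with a UMI was 3.56%, 11.1% and 27.6% from low- to high-globin cells, although the last were the shallowest. Its close relative Mcpt1, with which reads may be split, had 308 UMIs in 118 cells, while Mcpt4 had 5 UMIs, Mcpt8 3 and Tpsb2 none.

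Chga (chr12:102554969-102565028), which encodes chromogranin A of hormone and nerve cell granules, was held by few cells. Its UMIs numbered 26, 160 and 253 in the panobinostat samples and 1, 3 and 41 in the vehicle samples, or 20.5, 113 and 45.02 CPM against 0.58, 0.40 and 7.45 CPM. All panobinostat samples were higher, without overlap. Only 2, 4 and 11 panobinostat cells and 1, 2 and 14 vehicle cells held a UMI, and the single richest cell gave 92.3%, 49.4% and 39.9% of the Chga UMIs in the panobinostat samples. Panobinostat samples averaged 59.7 ± 48.2 CPM and vehicle samples 2.81 ± 4.02 CPM (SD, n = 3 each; exact permutation p = 0.1, the smallest possible). The edgeR log2 fold change was 4.44 (SE 0.927; unadjusted p = 0.0015; adjusted p = 1.0), and DESeq2 gave 5.69 with an adjusted p of 0.0368. With edgeR it ran from 3.27 without leukemia vehicle 2 to 7.25 without WT panobinostat (7.24 without WT vehicle), and it was 2.57 where the top hashtag had to be 4 times the second. The share of cells with a UMI was 2.44%, 4.82% and 3.14% with panobinostat and 0.877%, 0.532% and 4.06% with vehicle, with WT vehicle among the higher ones. The difference in CPM therefore rests on a handful of cells rich in Chga, namely 1, 4 and 5 panobinostat cells and 0, 0 and 1 vehicle cells with 10 or more UMIs. Other granins and the prohormone convertases were near absent: Chgb had 3 UMIs, and Scg2, Scg3, Scg5, Pcsk1 and Pcsk2 had none.

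The 3 genes marked overlapping but different sets of cells. Tac2 and Mcpt2 were found together in 118 cells, Tac2 and Chga in 17, Mcpt2 and Chga in 11, and all 3 in 4. Mcpt2 was held by 32.4% of cells with Chga, against 14.1% of all erythroid cells. Tac2 was held by 62.1% of cells with Mcpt2, against 79.6% of cells without Mcpt2. It was held by 50% of cells with Chga, against 77.8% of cells without Chga. The part of depth and globin share in these values was not tested. The median globin share was 5.14% in cells with Tac2 and 14.7% in cells without it. Cells with Tac2 were also deeper, with a median of 16952 UMIs against 13452 UMIs. Per non-globin UMI the order was the reverse, with Tac2 higher in high- than in low-globin cells in 5 of 6 samples. The median globin share was 20.6% in cells with Mcpt2, 4.92% in cells without it, and 37.4% in the 34 cells with Chga. Over 1349 cells thinned to one depth, the genes most like Tac2 by Spearman's rho were Actr3b (0.191), Fth1 (0.186), Rplp1 (0.166), Rplp0 and Glo1. For Mcpt2 they were Hba-a2 (0.193), Hba-a1 (0.184), S100a10, Malat1 and Hbb-bs, and for Chga they were Hba-a1 (0.147), Hbb-bs (0.143), Ifi27l2a (0.139), Hba-a2 and Slc25a37. Correlations this weak in sparse counts of cells that share libraries are given as description only.

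Genes of other cell types were present to different degrees. The mast cell and basophil list summed to 582, 537 and 435 CPM with panobinostat and 537, 904 and 512 CPM with vehicle, highest in leukemia vehicle 2. Its level came from a few genes: 9 of the 15 were under 10 CPM and 1 was at 0. Gata2 and Csf2rb of this list are also in the progenitor list. Ms4a2, a chain of the high-affinity IgE receptor, stood at 153, 117 and 97.7 CPM with panobinostat and 155, 321 and 142 CPM with vehicle. Hdc, which makes histamine, stood at 92.2, 99.97 and 86.8 CPM with panobinostat and 77.7, 185 and 88.8 CPM with vehicle. The defining mast cell and basophil genes were near 0, with Cpa3 at 1.003 CPM, Fcer1a at 0.741 CPM and Mcpt8 at 0.131 CPM over all erythroid cells. Ms4a2 stood at 315, 158 and 67.9 CPM of non-globin UMIs from low- to high-globin cells and was lower in high-globin cells in 6 of 6 samples, as was Hdc, at 169, 121 and 69.6 CPM. In low-globin cells alone Ms4a2 ranged from 195 to 310 CPM in the panobinostat samples and from 235 to 383 CPM in the vehicle samples, with leukemia vehicle 2 still highest.

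DC RNA was also found in these cells. Cst3 stood at 1424, 1264 and 1001 CPM with panobinostat and 794, 523 and 1322 CPM with vehicle, and Cd74 at 1274, 1112 and 746 CPM with panobinostat and 794, 290 and 1281 CPM with vehicle. Both were lowest in leukemia vehicle 2, as was the CD11c antibody, and both were high in WT vehicle. The mature DC list summed to 752, 625 and 283 CPM with panobinostat and 587, 151 and 438 CPM with vehicle. Its highest gene over all erythroid cells was Socs2 (86.1 CPM), which is also in the progenitor list. The median log2 fold change of the mature DC list for panobinostat was 0.54 with 8 of 8 genes positive. Without leukemia vehicle 2 it was -0.22 with 2 of 8 positive. The cDC1 list summed to 57.4 to 158 CPM and the monocyte list to 49.4 to 184 CPM. The endothelial list summed to 82.7, 129 and 81.3 CPM with panobinostat and 59.1, 87.6 and 72.7 CPM with vehicle, with 7 of 8 genes under 10 CPM and most of the sum from Egfl7 (64.4 CPM overall). Of its 5 tested genes, 3 (Plvap, Cdh5 and Pecam1) were higher with panobinostat without overlap, against 2.69% of all genes. The median log2 fold change of the list was 1.01. Without leukemia vehicle 2 only 2 genes of the list had enough UMIs to be tested, both positive, with a median of 0.56. The neutrophil list summed to 0 to 1.74 CPM, with 5 of 10 genes at 0, the B cell list to 2.56 to 13.5 CPM and the red pulp macrophage list to 4.59 to 30.5 CPM. T and NK cell genes ranged from 0.27 CPM in leukemia vehicle 2 to 76.0 CPM in leukemia vehicle 1. Free RNA, doublets of cells from the same sample and expression by the erythroid cells themselves cannot be told apart here. Only 77 erythroid cells held fewer than 3 UMIs of every one of these lists. Genes shared with the progenitor list, such as Socs2, Gata2 and Csf2rb, count toward that limit.

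No gene passed the test for panobinostat. edgeR's quasi-likelihood test, with disease as a covariate, called 0 of 9824 genes higher and 0 lower at an adjusted p under 0.05 (0% in each direction). At an unadjusted p under 0.05 there were 128 genes higher and 99 lower. DESeq2 called 4 higher (Hspb1, Gm15915, Sparc and Chga) and 1 lower (Actr3b). In simulated counts of the same 9824 genes and samples the edgeR test recovered 100% of genes changed 4-fold and 92% of those changed 3-fold. It recovered 50% of those changed 2-fold and 6% of those changed 1.5-fold, with 50 genes at each size and 13 false calls. These rates hold for the simulated counts only, and recovery in the measured counts was not tested. They are given by size of change alone. Recovery by level or by spread, as for sparse or variable genes such as Chga, was not tested. In the measured counts edgeR did not call Chga, at a fitted log2 fold change of 4.44. The genes DESeq2 called, chosen after their values were seen, differed in kind. Actr3b, a relative of the actin nucleator subunit Arp3, stood at 127, 137 and 97.2 CPM with panobinostat and 181, 243 and 171 CPM with vehicle, without overlap (edgeR log2 fold change -0.69). The transcript Gm15915 stood at 153, 102 and 147 CPM with panobinostat and 81.8, 78.2 and 76.7 CPM with vehicle, also without overlap (0.82). Sparc, a matrix protein of endothelial and other stromal cells, stood at 32.3, 18.4 and 6.23 CPM with panobinostat and 0.58, 0.81 and 1.998 CPM with vehicle; it moved with the endothelial markers above, whose part in it was not tested. Hspb1 stood at 41.0 CPM in leukemia panobinostat 1 and 0.40 to 4.96 CPM elsewhere. In the cells under 250 CD11c counts edgeR called Actr3b (log2 fold change -1.20, adjusted p = 0.030), Gm15915 (1.34, adjusted p = 0.0095), Phlda1 (1.52, adjusted p = 0.0095) and Pf4 (2.27, adjusted p = 0.030). That limit was chosen after seeing the data. It left 30, 30 and 196 cells in the panobinostat samples (leukemia 1, leukemia 2 and WT) and 61, 333 and 49 in the vehicle samples.

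Known responders to deacetylase inhibition, a list of 15 tested genes, had 0 called, 12 with a positive log2 fold change and a median of 0.23, beside a median of 0.0012 over all genes. Without leukemia vehicle 2 the list had 5 of 14 positive and a median of -0.06. Hist1h2bc, a replication-independent histone gene, stood at 121, 118 and 113 CPM with panobinostat and 92.2, 83.5 and 87.6 CPM with vehicle, without overlap (log2 fold change 0.47, SE 0.112; unadjusted p = 0.00333). Txnip, a thioredoxin inhibitor, stood at 232, 226 and 233 CPM with panobinostat and 187, 225 and 197 CPM with vehicle (0.23). Hist2h2be, in the same list, was lower without overlap. Of the 9 histone deacetylase genes tested, 4 were positive (median -0.01), and 0 of 5 (-0.25) in the cells under 250 CD11c counts. Without overlap, Hdac4 was higher and Hdac5 lower. Both were sparse, at 5.21 to 8.12 CPM (Hdac4) and 9.55 to 18.9 CPM (Hdac5) of non-globin UMIs across the 3 globin groups. Over all 9824 genes, 2.69% were higher and 6.4% lower with panobinostat without overlap.

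The erythroid lists had different medians without leukemia vehicle 2 and in the cells under 250 CD11c counts, which include that sample. The heme list had 11 of 15 genes positive (median 0.11), 7 of 15 (-0.01) without leukemia vehicle 2 and 14 of 15 (0.17) under 250 CD11c counts. The membrane list had 14 of 21 positive (0.10), 7 of 21 (-0.05) without that sample and 18 of 20 (0.17) under 250 CD11c counts. The transcription factor list had 9 of 15 positive (0.09), 7 of 15 (-0.01) without it and 12 of 15 (0.31) under 250 CD11c counts. The 4 adult globins were all positive (0.34), 1 of 4 was (-0.02) without it, and 4 of 4 were (0.78) under 250 CD11c counts. The S phase list had 8 of 25 positive (-0.04), 10 of 25 (-0.02) without it and 14 of 25 (0.01) under 250 CD11c counts. The G2/M list had 4 of 25 positive (-0.07), 14 of 25 (0.01) without it and 10 of 25 (-0.04) under 250 CD11c counts. No heme gene differed without overlap; in the iron list Tfr2 and Ireb2, an iron sensor, were higher without overlap, in the membrane list Tmod1, an actin capper, was higher, and Zbtb7a and E2f4, both needed for terminal erythropoiesis, were lower. In the S phase list 4 of 25 genes (Dtl, Ccne2, Mcm2 and Cdc6) were lower without overlap and 0 were higher, against 6.4% and 2.69% of all genes. Cdkn2c, the cell cycle inhibitor p18, stood at 41.8, 49.6 and 38.4 CPM with panobinostat and 56.8, 56.8 and 59.9 CPM with vehicle, without overlap (log2 fold change -0.39). Interferon-stimulated genes had 20 of 26 positive with a median of 0.18, and 12 of 22 with a median of 0.01 without leukemia vehicle 2. Ifi27l2a, one of them, stood at 1190, 1116 and 1081 CPM with panobinostat and 906, 743 and 966 CPM with vehicle, without overlap (0.42, unadjusted p = 0.00863).

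**Figure D5:**
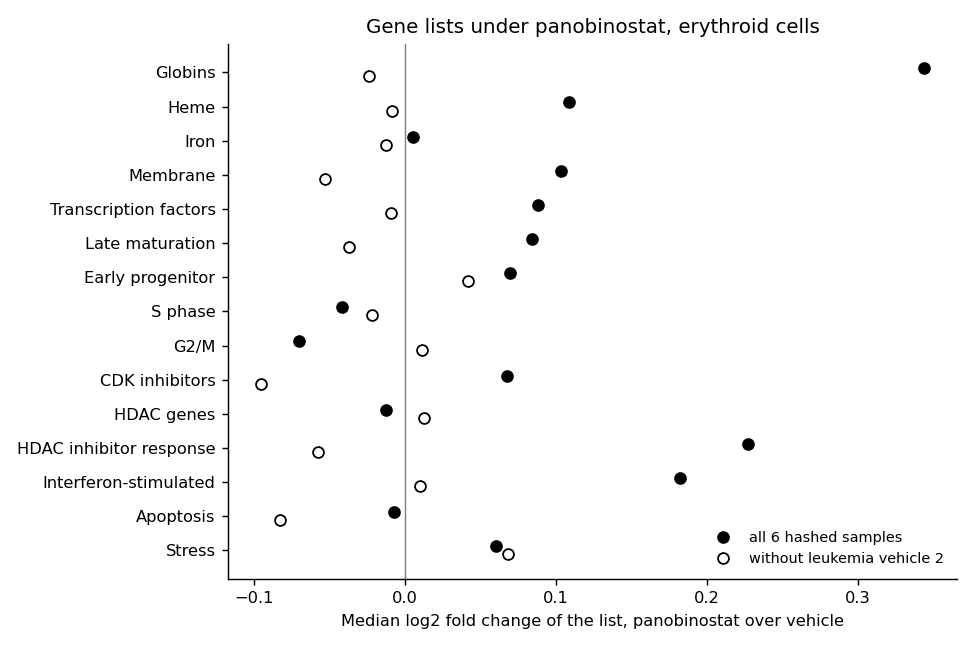
Median log2 fold change, panobinostat over vehicle, of each gene list with all 6 hashed samples (filled) and without leukemia vehicle 2 (open). The heme list lies at 0.11 with all samples and at -0.01 without leukemia vehicle 2, and the list of responders to deacetylase inhibition at 0.23 and -0.06.

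For leukemia against WT, edgeR likewise called 0 genes higher and 0 lower (0% in each direction), with 75 higher and 57 lower at an unadjusted p under 0.05. DESeq2 called none in either direction, with 37 and 20 at an unadjusted p under 0.05. Without overlap between the 4 leukemia and 2 WT samples, 7.87% of genes were higher in leukemia and 1.68% lower. Of 15 heme genes 5 were lower without overlap (Fam210b, Urod, Eif2ak1 and Uros among them) and 1, Ppox, was higher. The heme list had 2 of 15 positive and a median log2 fold change of -0.18, beside -0.0041 over all genes. The median was -0.10 without leukemia vehicle 2 and 0.01 in the cells under 250 CD11c counts. The membrane list had 2 of 21 positive (median -0.17), and 5 of 21 (-0.06) without leukemia vehicle 2. In the S phase list 0 of 25 were positive (-0.10), 1 of 25 (-0.10) without that sample and 10 of 25 (-0.01) in the cells under 250 CD11c counts. Of 15 erythroid transcription factors, Gata1 was lower in leukemia samples without overlap and Bcl11a higher. Of 15 progenitor genes, Epor was lower, while Gata2, a progenitor factor that GATA1 replaces, Stat5a and Csf2rb were higher. Of 19 late maturation genes, Car2 and Hemgn were lower, and of 4 globins Hba-a1 was (at most 24355 CPM, against 25547 CPM or more in WT). Gata2 and Csf2rb were also higher in high- than in low-globin cells in 6 of 6 samples. Whether these genes follow maturity was not tested. The fit with an interaction term over 10393 genes gave an adjusted p of 0.0287 (edgeR) for Lyz2 and Gzma, genes of myeloid and of T or NK cells, but the WT effect in it rests on 1 sample per treatment and has no replicate.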

How the data were processed

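Gene RNA, hashtags and 2 antibody tags were counted in 38717 barcodes of 1 capture (10x 3' v3 chemistry, per the labels). The values are counts as deposited: whole UMI numbers for each feature in each barcode, per the file headers (426901103 gene UMIs). Cell Ranger 3.1.0, Seurat 3.1.0 and builds mm10 and GRCm38 are named in the submitters' processing notes. Positions come from GENCODE vM21. No doublet caller was run: the hashtag ratio removes doublets between samples only. UMIs were summed per hashed sample (1268912 to 7408758) and tested with edgeR 4.0.16 (R 4.3.3; TMM, filterByExpr, ~ disease + treatment, quasi-likelihood, Benjamini-Hochberg), with DESeq2 1.42.0 as alternative. The edgeR step was tested on simulated data. Single values had exact two-sided permutation or sign-flip tests (Python 3.11.15, scipy 1.17.1). Shares across depths used cells thinned to 2000 UMIs. The text names genes called at adjusted p under 0.05 (10 per direction by size, 20 CPM or more), called list members, the rule genes, globins, Tac2, Mcpt2 and Chga, the 20 leading erythroid genes and 5 correlates each; other names were chosen after their values were seen. The members, the 30 lists (385 genes, 379 in the table) and tests were chosen with earlier results of these data known. Some named genes are not reported here.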

Additional observations from a re-analysis of the deposited data

Results flagged for a closer look

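Among the 4 leukemia samples, the erythroid share of leukemia vehicle 2 (14.6% of kept cells) lay far from the others, its gap to the nearest sample being 0.931 of the whole range, above Dixon's critical value for 4 samples at the 95% level. Its globin share of erythroid UMIs (4.37%) did so too, at 0.961 of the range. By chance such a gap is found in about 5% of groups. The same sample had the lowest median own hashtag count (72) and the lowest median CD11c count (179) of the 6, and the part of these in both values was not tested.

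For 2 genes the effect of panobinostat differed between leukemia and WT samples by an interaction term over 10393 genes, of which 424 had an unadjusted p under 0.05 (edgeR adjusted p = 0.0287 for both). Lyz2, lysozyme of myeloid cells, had an interaction log2 fold change of 3.58: it stood at 31.5 and 41.8 CPM in leukemia panobinostat samples and 8.70 and 7.69 CPM in leukemia vehicle samples, while WT panobinostat had 35.1 CPM and WT vehicle 90.1 CPM. Gzma, a granzyme of T and NK cells, had a fitted value of 16.9, which depends on the prior count because several samples are at 0: it stood at 30.7 and 42.5 CPM in leukemia panobinostat samples, 0 and 0 in leukemia vehicle samples, 0 in WT panobinostat and 3.45 CPM in WT vehicle. With 1 WT sample per treatment, the WT effect has no replicate.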

How the results depend on the processing

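The 1350 cells come from 6 hashed samples of 1 capture with weak hashtags, and 82 to 376 cells per sample limit what is detectable; the cause of a change with a setting was not tested. Leaving out each sample in turn, the share difference ran from -4.51 to 1.498 percentage points for panobinostat and from -3.15 to 2.34 for leukemia, globin from 0.335 to 3.89 and from -3.18 to -0.856, cell cycle UMIs from -0.0707 to -0.0193 and from -0.0356 to 0.0178, CD11c from -1194 to -1000 (exact p = 0.0625, the smallest 5 pairs allow) and Siglec-H from -17.6 to -6.1. Genes called by edgeR ranged from 0 to 3 higher and 0 to 4 lower with panobinostat, and from 0 to 7 higher and 0 to 1 lower in leukemia; without leukemia vehicle 2 they were 4 lower with panobinostat (Jchain, Igkc, 2610528A11Rik and Ighm) and 7 higher in leukemia (Pfkfb3, Klre1, Gzmb, Birc2, Fxyd2, Ccl5 and Ccl4), without WT vehicle 3 higher with panobinostat (Igfbp7, Sparc and Gzma), and without WT panobinostat 2 higher (Igfbp7 and Gzma) and 1 lower in leukemia (Lyz2). For panobinostat the log2 fold change ran from -0.37 to -0.25 for Tac2, 0.27 to 0.97 for Mcpt2 and 3.27 to 7.25 for Chga. For leukemia it ran from -0.10 to 0.0252 for Tac2, -0.13 to 1.01 for Mcpt2 and -4.10 to 0.53 for Chga. With a top hashtag at least 4 times the second, the cell cycle difference for leukemia was 0.0202. Leaving out cells with 3 or more UMIs of another list (77 cells remained) gave a share difference of 0.0832, a cell cycle difference of 0.0765 and a globin difference of -1.63 for panobinostat. Vehicle samples alone gave 5.37 (share) and 0.0527 (cell cycle) for leukemia minus WT. Cells under 250 CD11c counts, an alternative chosen after seeing the data, gave 1.52 (share) and 1.32 (globin) for leukemia, with 3 genes higher and 1 lower for panobinostat and 1 lower (Igkc) in leukemia. DESeq2 called 4 higher and 1 lower for panobinostat. With no filter on low counts edgeR called 110 higher and 14 lower for panobinostat, and 24 higher and 13 lower for leukemia. Leukemia samples alone gave 1 higher (Gzma). The Tac2 leukemia fold change was 0.0902 at 10 or more rule UMIs, 0.35 without cells of other lists, 0.0297 thinned, 0.0826 with hashtags less their background, 0.0353 in cells with 2% or more globin and 0.27 under 250 CD11c counts, where Chga was 0.88; the last 3 settings were added after seeing the data. Chga for panobinostat was past the threshold with DESeq2 (5.69) and with no filter (4.43). With the replicate number as a block, edgeR called 0 genes higher and 0 lower for panobinostat (131 and 91 at an unadjusted p under 0.05), and no call changed; the deviations of same-numbered leukemia samples correlated at 0.171 over 2 pairs, which share only a number.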
